A study of Mus musculus with 8 samples.

Results

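The genes described here are the kallikreins, other trypsin-like serine proteases, cathepsins, ADAM and ADAMTS metalloproteases and caspases of mouse keratinocytes, together with the TIMP and SPINK inhibitors. They were taken by the start of the gene symbol (Klk, Tmprss, Prss, Cts, Adam, Adamts, Casp, Timp and Spink), with Adamts1 left out, from probe sets that carry exactly 1 symbol of the platform. This gave 102 of the 9294 genes tested. The symbol also takes in relatives that are not proteases, such as the ADAMTS-like genes and Casp8ap2, the gene of a protein that binds caspase-8, and the pseudogene Klk1b7-ps. RNA of C57BL/6 keratinocytes in regular medium was hybridised to 8 one-colour arrays, 3 days after transduction with v-rasHa, a viral oncogenic form of Hras. Wild-type keratinocytes gave 4 of these arrays (wild-type RAS, replicates WT1 to WT4) and Nfkbiz KO keratinocytes gave 4 (knockout RAS, replicates KO1 to KO4). Nfkbiz encodes IkBz, an IkB family protein that acts in the nucleus on part of the NF-kB targets. Every culture carried the oncogene, so knockout and wild type are compared within transduced cells only. The labels call the replicates biological without saying whether they are separate animals or cultures, so p-values measure the spread between these 8 samples. Nfkbiz itself was not analysed here, and the genotype labels were not checked against it.

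Epidermal proteases work as cascades. Tissue kallikreins are secreted serine proteases that cut the desmosomal proteins holding corneocytes together, so that cells are shed from the skin surface, and LEKTI, the product of Spink5, restrains them. Membrane-anchored serine proteases of the TMPRSS and PRSS families activate other proteases and ion channels at the cell surface, cathepsins degrade proteins mainly in lysosomes, ADAM proteases shed membrane proteins such as growth factor precursors, ADAMTS proteases cut matrix proteoglycans, and caspases carry out cell death and inflammatory processing.

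The cultures had keratinocyte transcripts: Krt5, the basal keratin, had mean log2 signals of 13.42 in wild-type and 13.29 in knockout arrays. None of 10 measured keratinocyte markers lay under the lower quartile of the arrays. The same held of 9 fibroblast and 4 melanocyte markers and of all but 1 of 12 leukocyte markers. This count therefore does not single out keratinocytes. The melanocyte markers had mean log2 signals from 4.84 to 10.49. Array medians lay between 4.49 and 4.57 and lower quartiles between 3.33 and 3.39, and signals under the lower quartile could not be told from background, since no detection calls were used. By this measure 34 of the 102 genes lay under the lower quartile in both groups. One array of each genotype stood low for the serine proteases and Spink genes. Of 25 such members with a mean log2 signal of at least 5, WT1 had the lowest wild-type value in 18 and KO1 the lowest knockout value in 17. WT3 had the highest wild-type value in 15. This count was made after the values were seen. Among the 15 members of the other families at that level, the same arrays were lowest in 5 and 5 and WT3 was highest in 4.

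Secreted and membrane-bound serine proteases (Klk, Tmprss and Prss) made up 12 of 17 calls, of which 10 were falls in the knockout. These families also hold much of the part, with 18, 11 and 23 of the 102 members. The falls of Tmprss11d and Tmprss11g were at signals under the lower quartile in both groups. In limma with Benjamini-Hochberg adjustment over all genes, 13 of the 102 members fell and 4 rose at an adjusted p under 0.05. Over all 9294 genes, 8.90% were called, 4.43% as lower and 4.47% as higher. The share of members called was 16.7%, with 12.7% lower and 3.92% higher. The balance of all genes depended on the centring: 415 were higher and 412 lower as deposited, and 482 higher and 314 lower with arrays centred on their medians, where 5 members were higher and 11 lower. The median log2 fold change was -0.03 over the members and -0.01 over all genes. The genes that fell were Ctsk, Tmprss11e, Tmprss4, Prss35, Spink5, Tmprss11d, Prss22, Tmprss13, Tmprss11g, Klk9, Klk7, Klk6 and Adamts7, and those that rose were Adamts20, Ctsw, Klk11 and Prss12. The 4 knockout values lay wholly to one side of the 4 wild-type values in all 17. Groups did not overlap for 23 of the 102 members (22.5%), against 15.9% of all genes. Without WT2, 8 members fell and 2 rose. The number that rose was also 2 without WT4, KO1 or KO3, while 10, 10 and 9 fell. Leaving out WT1 gave 12 that fell and 3 that rose.

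**Figure D1:**
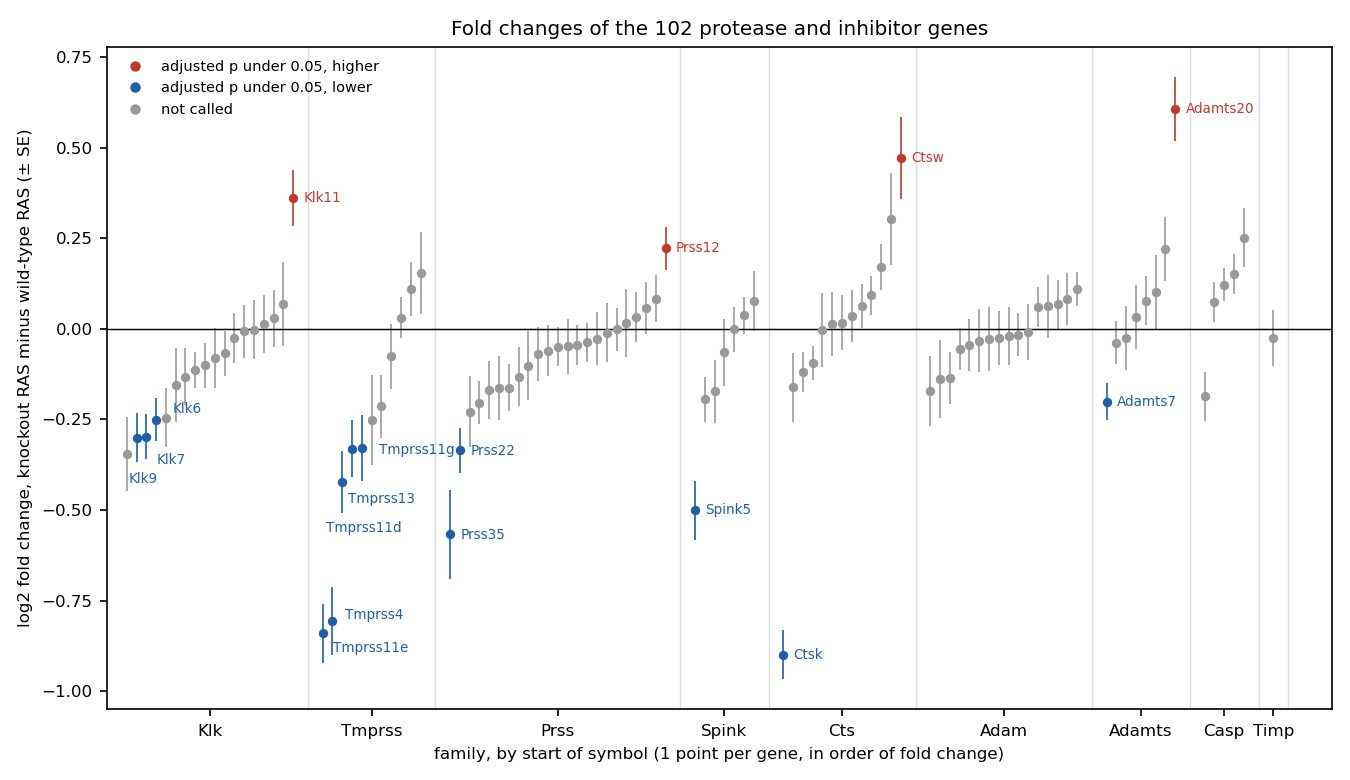
Log2 fold changes of the 102 genes (vertical axis, knockout RAS minus wild-type RAS, with standard errors), grouped by family along the horizontal axis and ordered within it; blue and red points passed an adjusted p of 0.05 as lower or higher. Tmprss has 5 of 11 genes among the falls, while all 16 Adam and all 5 Casp points are grey.

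Calls were more frequent among members with higher signals. Of 40 members with a mean log2 signal of at least 5, 9 fell and 3 rose, a share called of 30.0%, where 16.0% of all genes at that level were called and 7.52% were lower. Of 62 members below that level, 4 fell and 1 rose, or 8.06%, where 2.50% of all such genes were called. Under the lower quartile in both groups lay 12 of 16 Adam genes, 5 of 8 Klk1b genes, 5 of 11 Tmprss genes, 5 of 13 Cts genes and 4 of 23 Prss genes. Many of these genes are known for expression in testis, salivary gland or placenta.

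**Figure D2:**
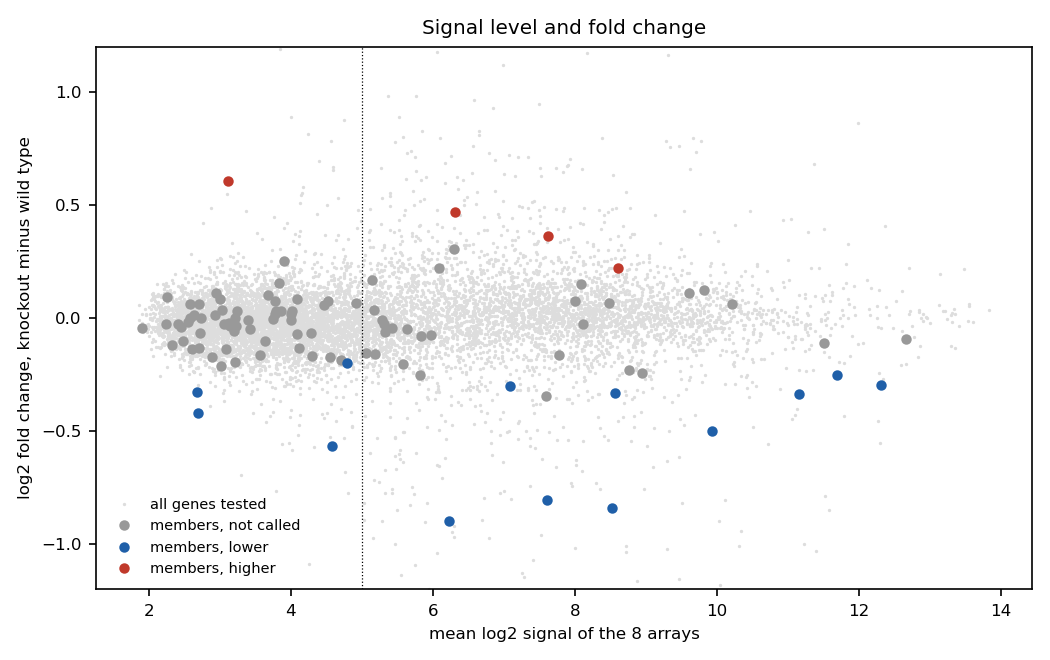
Mean log2 signal over the 8 arrays (horizontal axis) against the log2 fold change (vertical axis, knockout minus wild type) for all genes tested in light grey and the 102 members as larger points; the dotted line marks a signal of 5. The vertical axis ends at 1.2 in each direction, which leaves out 27 genes, none of them a member. The blue points of Ctsk, Tmprss4 and Tmprss11e lie lowest.

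Within the kallikreins Klk7, Klk6 and Klk9 fell modestly in the knockout, and Klk11 rose. Of 18 measured kallikreins, 3 fell, 1 rose and 14 missed the threshold. The share called was 22.2%, where 8.90% of all genes were called. At a mean log2 signal of at least 5 it was 40%, where 16.0% of all genes were called. The median log2 fold change of the 18 was -0.09, and -0.20 over the 10 genes outside the Klk1b group. Klk7, the chymotrypsin-like stratum corneum enzyme that cuts corneodesmosin, had log2 signals of 12.35, 12.52, 12.53 and 12.45 in the wild-type arrays and 12.05, 12.25, 12.18 and 12.18 in the knockout arrays. The signal stayed high in both genotypes, and every knockout value lay below every wild-type value. Its log2 fold change was -0.30 ± 0.06 (SE; limma adjusted p = 0.0123), a 1.23-fold fall. Klk6, a trypsin-like kallikrein of squamous epithelia, had 11.71, 11.86, 11.89 and 11.79 in wild type and 11.46, 11.62, 11.58 and 11.59 in the knockout. It fell by 0.25 ± 0.06 (limma adjusted p = 0.0231). Klk9 had 7.26, 7.30, 7.19 and 7.21 in wild type and 6.83, 7.11, 6.87 and 6.96 in the knockout, and fell by 0.30 ± 0.07 (limma adjusted p = 0.0160). Leaving out WT2 ended the calls of Klk6 and Klk9 (limma adjusted p = 0.0699 and 0.0512), as did leaving out KO3 (limma adjusted p = 0.0522 and 0.0519). For Klk6 the same held of WT3 (limma adjusted p = 0.0641) and KO1 (limma adjusted p = 0.0717). Without WT2 or KO3, Klk7 was therefore the 1 kallikrein that fell, while 5 fell with genes under a mean of 5 left out and 6 with a trended robust variance.

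Klk11, a trypsin-like kallikrein of stratified epithelia, rose. Its log2 signals were 7.31, 7.47, 7.61 and 7.37 in wild-type arrays and 7.65, 7.91, 7.82 and 7.84 in knockout arrays. The lowest knockout value lay just above the highest wild-type value. The log2 fold change was 0.36 ± 0.08 (SE; limma adjusted p = 0.0135), a 1.29-fold rise, and it passed in each of the 16 alternatives.

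Other epidermal kallikreins did not pass. Klk5, the trypsin-like protease that activates Klk7 in the kallikrein cascade, had 7.57, 7.80, 7.99 and 7.68 in wild type and 7.23, 7.53, 7.58 and 7.31 in the knockout. The groups overlapped in 1 knockout array, and the log2 fold change of -0.34 ± 0.10 had a limma adjusted p of 0.0647, which was 0.0406 without WT1. Klk10 had a log2 fold change of -0.25 ± 0.08 (limma adjusted p = 0.0968) with groups that did not overlap, and Klk8, an epidermal kallikrein also known as neuropsin, had -0.11 ± 0.05 (limma adjusted p = 0.224). Klk12 had -0.16 ± 0.10 and Klk13, a kallikrein of squamous epithelia, had 0.07 ± 0.12 (limma adjusted p = 0.439 and 0.814). Klk4, the enamel-matrix kallikrein, had a mean log2 signal of 3.64, under the array medians, and a log2 fold change of -0.10 ± 0.06 (limma adjusted p = 0.409). The 8 Klk1b genes (Klk1b1, Klk1b7-ps, Klk1b8, Klk1b11, Klk1b16, Klk1b21, Klk1b24 and Klk1b27), a rodent expansion known from salivary glands, had log2 fold changes from -0.13 to 0.03 and none passed in limma, nor had any of them an unadjusted p under 0.05. Klk1b21 had a mean log2 signal of 5.83, and the other 7 lay under the array medians in both groups. The Klk1b genes are near-identical, so values of single members are uncertain.

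**Figure D3:**
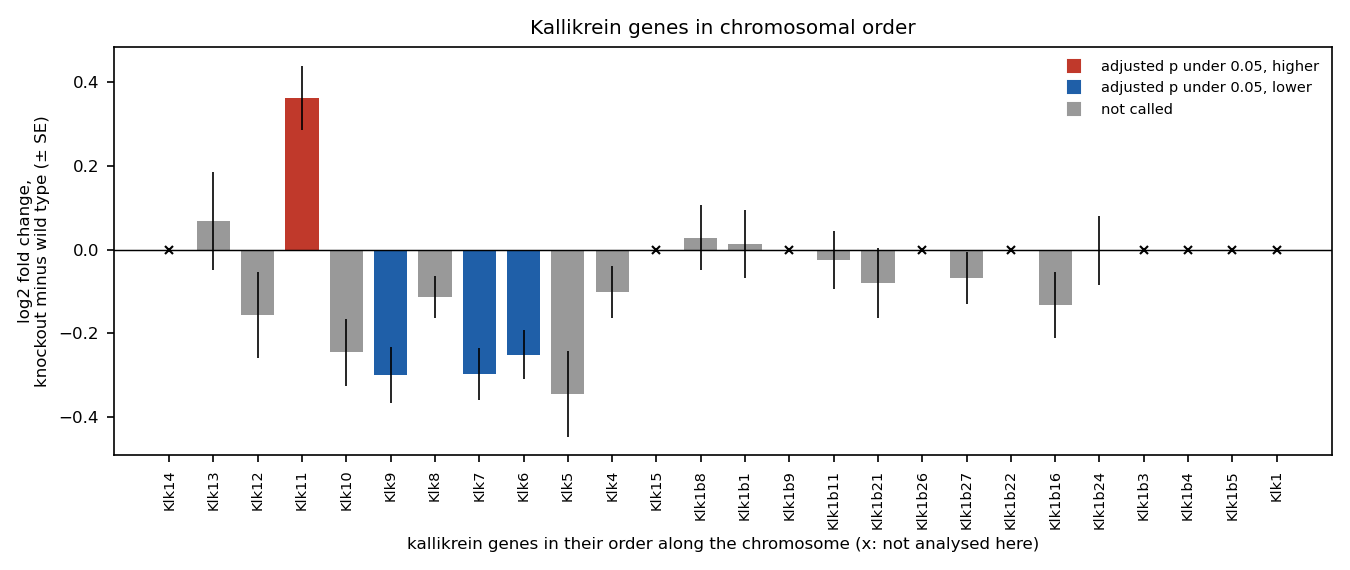
Log2 fold change (vertical axis, knockout minus wild type, with standard errors) of the measured kallikreins other than Klk1b7-ps, in the order of the genes along the chromosome (horizontal axis); crosses mark genes not analysed here and colours mark calls. The blue bars of Klk9, Klk7 and Klk6 and the red bar of Klk11 lie in 1 stretch from Klk13 to Klk4, and no Klk1b bar is coloured.

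In the RefSeq gene order of GRCm38.p6, the kallikreins form 1 cluster on chromosome 7, in which Klk13, Klk12, Klk11, Klk10, Klk9, Klk8, Klk7, Klk6, Klk5 and Klk4 follow each other. Klk11 therefore lay between Klk12 and Klk10, whose log2 fold changes were negative, though neither was called. The ratio of Klk11 to its neighbours within an array removes what both share on that array. Log2 of Klk11 over Klk10 was -1.62 ± 0.02 in wild-type and -1.01 ± 0.02 in knockout arrays (SD, n = 4 per group), a difference of 0.61. Log2 of Klk11 over Klk12 was 2.31 ± 0.07 and 2.83 ± 0.19 (SD), a difference of 0.52. Klk12 had a mean log2 signal of 5.05, a level that without detection calls does not show expression. In both ratios the groups did not overlap (two-sided exact permutation p = 0.0286, the smallest that 4 against 4 arrays allow, and 0.0381 adjusted over 4 ratios). On these arrays Klk11 was higher relative to Klk10 and to Klk12 in the knockout. The ratios were chosen after the values were seen, and their p-values do not allow for that choice. These p-values therefore cannot decide whether the neighbours changed unequally.

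The promoter windows of the called kallikreins, from 250 bases before to 50 after an annotated start, are given to show the sequence next to genes of 1 cluster that were called in opposite directions. The sequences are from RefSeq, build GRCm38.p6, plus strand. The windows are chr7:43774367-43774666 and chr7:43776079-43776378 for 2 starts of Klk11, chr7:43791641-43791940 for Klk9, chr7:43811044-43811343 for Klk7, and chr7:43824294-43824593 and chr7:43825200-43825499 for 2 starts of Klk6. Capitals mark matches, on either strand, to a kappaB motif of GGGA, 4 bases of any kind and CC.
Klk11, first start: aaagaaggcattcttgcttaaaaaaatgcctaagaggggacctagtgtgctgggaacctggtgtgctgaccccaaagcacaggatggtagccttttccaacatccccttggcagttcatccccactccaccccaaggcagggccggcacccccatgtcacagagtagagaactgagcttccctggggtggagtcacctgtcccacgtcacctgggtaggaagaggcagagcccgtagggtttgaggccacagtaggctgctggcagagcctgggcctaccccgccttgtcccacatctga
Klk11, second start: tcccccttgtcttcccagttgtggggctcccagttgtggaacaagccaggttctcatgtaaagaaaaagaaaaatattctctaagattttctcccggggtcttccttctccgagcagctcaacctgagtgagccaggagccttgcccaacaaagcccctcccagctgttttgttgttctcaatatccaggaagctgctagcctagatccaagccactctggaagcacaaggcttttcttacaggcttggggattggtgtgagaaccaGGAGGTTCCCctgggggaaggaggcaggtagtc
Klk9: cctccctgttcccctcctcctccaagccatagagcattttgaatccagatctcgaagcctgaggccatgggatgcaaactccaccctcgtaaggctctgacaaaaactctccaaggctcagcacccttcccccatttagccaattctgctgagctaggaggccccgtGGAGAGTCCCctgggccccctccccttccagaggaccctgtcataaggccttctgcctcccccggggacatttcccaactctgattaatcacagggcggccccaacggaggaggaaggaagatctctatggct
Klk7: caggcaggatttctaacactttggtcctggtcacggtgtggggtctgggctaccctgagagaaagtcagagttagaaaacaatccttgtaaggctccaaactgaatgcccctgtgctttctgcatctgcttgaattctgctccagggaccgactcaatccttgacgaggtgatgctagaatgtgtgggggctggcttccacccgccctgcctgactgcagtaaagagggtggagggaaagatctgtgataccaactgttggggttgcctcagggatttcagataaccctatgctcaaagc
Klk6, first start: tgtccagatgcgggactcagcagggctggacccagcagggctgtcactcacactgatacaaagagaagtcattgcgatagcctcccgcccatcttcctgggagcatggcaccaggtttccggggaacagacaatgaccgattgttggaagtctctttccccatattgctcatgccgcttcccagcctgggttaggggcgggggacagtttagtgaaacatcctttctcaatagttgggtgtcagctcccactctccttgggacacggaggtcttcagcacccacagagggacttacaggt
Klk6, second start: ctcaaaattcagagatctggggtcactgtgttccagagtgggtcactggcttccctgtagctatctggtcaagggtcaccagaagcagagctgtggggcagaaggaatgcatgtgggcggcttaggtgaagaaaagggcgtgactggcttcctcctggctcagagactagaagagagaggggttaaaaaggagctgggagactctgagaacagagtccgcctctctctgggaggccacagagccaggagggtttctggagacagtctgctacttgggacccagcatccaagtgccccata
A kappaB match lay on the minus strand at positions 18 to 27 after the second start of Klk11 and at -83 to -74 before the start of Klk9, and the other 4 windows held none. None of the 6 windows held the AP-1 motif TGANTCA. Among all 32851 windows of that table, 20.7% held the kappaB motif and 7.81% the AP-1 motif, counting both strands. Of the 102 members 70 had at least 1 window, and of their 78 windows 17.9% held the kappaB motif and 8.97% the AP-1 motif. Of the 17 called members 10 had a window, and 5 of these 10 held a kappaB match: Klk9, Klk11, Prss12, Prss35 and Adamts20. This count is by gene, with a match in any window of the gene, while the shares above are by window. No share by gene was taken over all genes or uncalled members, so an excess among called members was not tested.

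Membrane-anchored serine proteases of the TMPRSS family were lower in 5 of 11 genes (45.5%), where 4.43% of all genes were lower. None rose, 6 missed the threshold, and the median log2 fold change was -0.25. At a mean log2 signal of at least 5, 3 of 5 Tmprss genes fell, where 7.52% of all genes were lower. The other falls, of Tmprss11d and Tmprss11g, were at signals under the lower quartile. Of the 11 Tmprss genes, none was higher and 6 were lower at an unadjusted limma p under 0.05. By that measure 920 of all 9294 genes were higher and 1012 were lower. Tmprss11e, an airway and epidermal protease also known as DESC1, had log2 signals of 8.84, 8.97, 8.94 and 9.03 in wild-type arrays and 8.08, 8.32, 7.92 and 8.11 in knockout arrays. All 4 knockout values lay well below the wild-type range. It fell by 0.84 ± 0.08 on the log2 scale (SE; limma adjusted p = 6.35e-05), a 1.79-fold difference. Tmprss4, a protease raised in several carcinomas, had 7.88, 8.02, 8.16 and 8.00 in wild type and 6.94, 7.37, 7.29 and 7.24 in the knockout. It fell by 0.81 ± 0.09 (limma adjusted p = 0.000221), or 1.75-fold, and KO1 was the lowest array. Tmprss13, an epidermal protease of the same family, had 8.62, 8.75, 8.79 and 8.77 in wild type and 8.18, 8.48, 8.54 and 8.40 in the knockout, and fell by 0.33 ± 0.08 (limma adjusted p = 0.0237). Tmprss13 no longer passed when WT2, WT3 or WT4 was left out (limma adjusted p = 0.0611, 0.0647 and 0.0672), nor when KO4 was (limma adjusted p = 0.0567). Tmprss11e and Tmprss4 passed in each of the 16 alternatives.

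The other Tmprss11 genes lie beside Tmprss11e in a cluster on chromosome 5. Tmprss11d, which encodes an airway trypsin-like protease, and Tmprss11g fell by 0.42 ± 0.09 and 0.33 ± 0.09 (limma adjusted p = 0.0100 and 0.0482). Their values stood at 2.73 to 3.04 and 2.62 to 3.07 in wild type and at 2.36 to 2.61 and 2.36 to 2.61 in the knockout, all under the lower quartiles of the arrays, so these falls describe signals that could not be told from background. Tmprss11g is read by a probe set of the _x_at kind that can bind related transcripts, and its call held without WT3 but not without any of the others (limma adjusted p of 0.0616 to 0.128). Tmprss11f had a log2 fold change of -0.25 ± 0.12 (limma adjusted p = 0.290) and Tmprss11a, also under the lower quartiles, one of -0.21 ± 0.09 (limma adjusted p = 0.184). All 5 measured Tmprss11 genes had negative log2 fold changes. The falls in the Tmprss family numbered 3 in place of 5 without WT2, WT4 or KO4. Tmprss6, the matriptase-2 gene of iron metabolism, had -0.08 ± 0.09 (limma adjusted p = 0.709). Tmprss3, the gene of a protease needed for hearing, had 0.16 ± 0.11 at a mean signal of 3.83 (limma adjusted p = 0.503), and Tmprss5 and Tmprss15 lay under the lower quartiles.

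**Figure D4:**
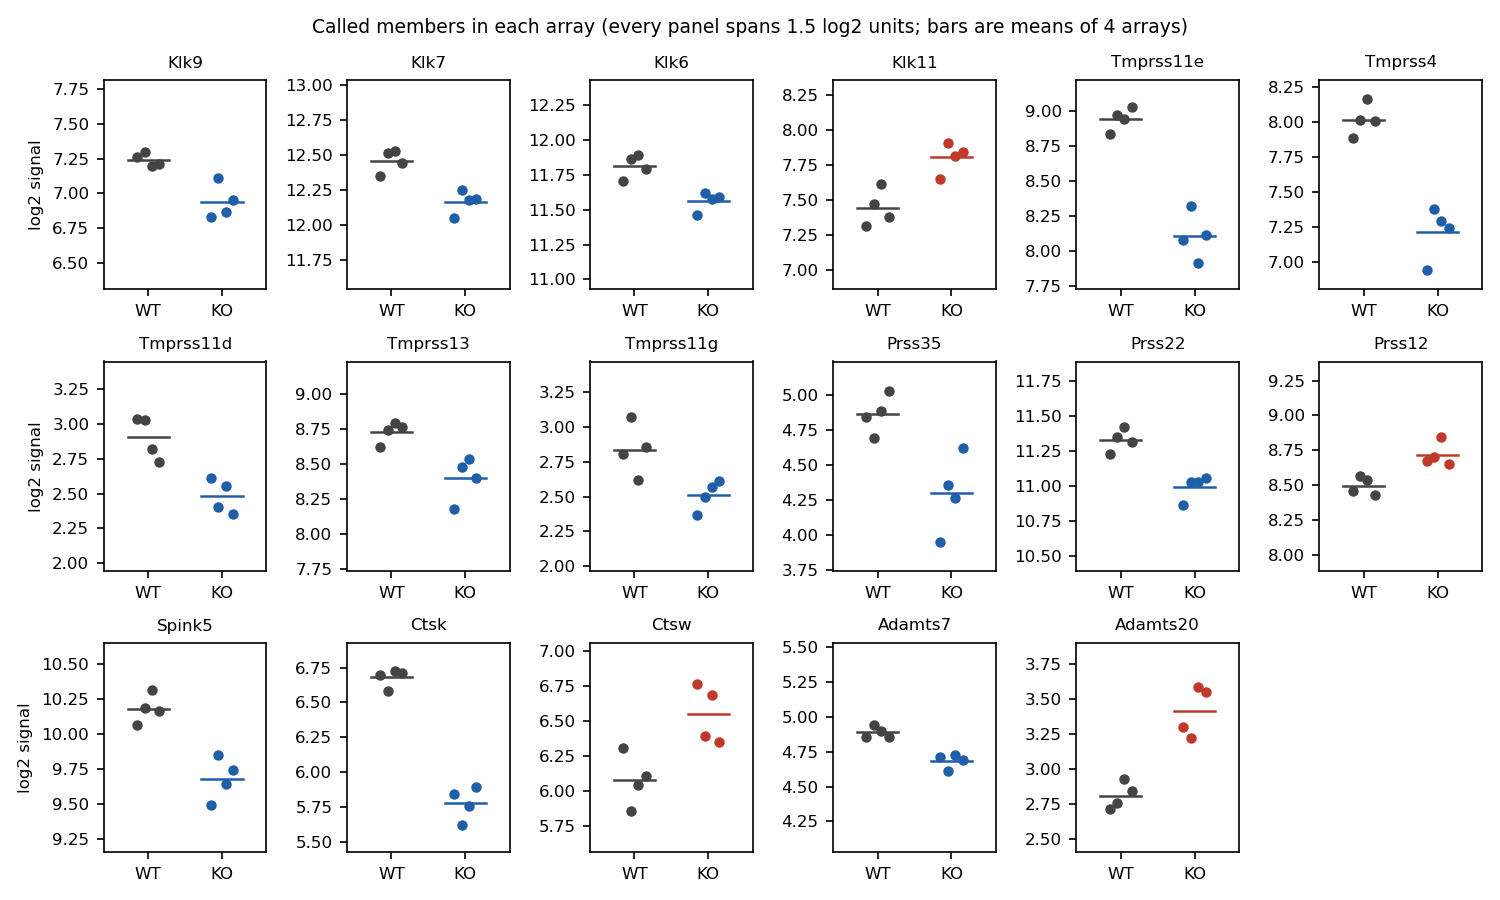
Log2 signal (vertical axis) of the 17 called members in each of the 4 wild-type RAS (WT, grey) and 4 knockout RAS arrays (KO, blue where lower and red where higher); each panel spans 1.5 log2 units and the bars are group means. In every panel the groups are separate, most widely in Ctsk, Tmprss11e and Tmprss4.

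Among the 23 Prss genes, 2 fell, 1 rose and 20 missed the threshold, around a median log2 fold change of -0.05. The share called was 13%, where 8.90% of all genes were called. At a mean log2 signal of at least 5 it was 25%, where 16.0% of all genes were called. Prss22, which encodes the epithelial protease tryptase epsilon, had log2 signals of 11.23, 11.35, 11.42 and 11.32 in wild type and 10.86, 11.03, 11.03 and 11.06 in the knockout. It fell by 0.34 ± 0.06 (SE; limma adjusted p = 0.00611) and passed in each of the 16 alternatives. Prss35, a secreted protease-like gene known from ovary, had 4.84, 4.70, 4.89 and 5.03 in wild type and 3.95, 4.36, 4.26 and 4.62 in the knockout. It fell by 0.57 ± 0.12 (limma adjusted p = 0.0144), with a knockout mean of 4.30 that lay under the array medians, and without WT4 its limma adjusted p was 0.0516 and 1 Prss gene fell. Prss12, the neurotrypsin gene, had 8.46, 8.57, 8.54 and 8.43 in wild type and 8.68, 8.70, 8.84 and 8.65 in the knockout. It rose by 0.22 ± 0.06 (limma adjusted p = 0.0422), but did not pass when any single array was left out (limma adjusted p of 0.0527 to 0.106). Prss8, the gene of prostasin, which activates the epithelial sodium channel, had a log2 fold change of -0.16 ± 0.07 (limma adjusted p = 0.180). For Prss27, the marapsin gene of squamous epithelia, it was -0.23 ± 0.10 (limma adjusted p = 0.212), and for Prss16, a thymic serine protease, -0.20 ± 0.06 (limma adjusted p = 0.0603). Prss51, Prss36 and Prss55 had means between 5.33 and 5.63 and log2 fold changes of -0.06, -0.05 and -0.05.

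Spink5, the gene of the kallikrein inhibitor LEKTI, fell as well. Its log2 signals were 10.06, 10.19, 10.31 and 10.16 in wild-type arrays and 9.49, 9.85, 9.64 and 9.74 in knockout arrays. The groups were separate, with KO1 lowest. The log2 fold change was -0.50 ± 0.08 (SE; limma adjusted p = 0.00251), a 1.41-fold fall that passed in each of the 16 alternatives. Since LEKTI inhibits the products of Klk5 and Klk7, their signals were also set against Spink5 within each array. These ratios were chosen with earlier results of these data known, and their p-values do not allow for that choice. Log2 of Klk7 over Spink5 was 2.28 ± 0.05 in wild-type and 2.48 ± 0.08 in knockout arrays (SD, n = 4 per group), with separate groups and a difference of 0.20 (two-sided exact permutation p = 0.0286, the smallest possible, and 0.0381 adjusted over the 4 ratios). Log2 of Klk5 over Spink5 was -2.42 ± 0.08 and -2.27 ± 0.16, a difference of 0.16 with overlapping groups (exact permutation p = 0.114, also when adjusted). Thus the signal of Spink5 fell by more than that of Klk7 on these arrays. The signals of different probe sets are not on 1 scale, so the size of a ratio cannot be read. Its change can be read as one of RNA only if both probe sets respond alike, which was not tested.

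Of 7 Spink genes Spink5 was the 1 called (14.3%, where 8.90% of all genes were called). The other 6 (Spink1, Spink2, Spink4, Spink8, Spink10 and Spink12) had log2 fold changes from -0.19 to 0.08. Spink2 had a mean of 5.17 and a log2 fold change of 0.04 (limma adjusted p = 0.757), and Spink1, a pancreatic trypsin inhibitor gene, had -0.19 ± 0.06 (limma adjusted p = 0.0846, and 0.0432 without WT3) at signals under the lower quartile of the arrays. Timp1, which encodes a secreted inhibitor of matrix metalloproteases and was the 1 Timp gene measured, had 8.02 to 8.20 in wild type and 7.95 to 8.29 in the knockout (limma adjusted p = 0.911). Its log2 fold change was -0.03, and 0.0016 with arrays centred on their medians. Among 14 measured protease inhibitors outside these families, 5 fell, 1 rose and 8 missed the threshold. The share called was 42.9%, where 8.90% of all genes were called and 16.0% of those with a mean log2 signal of at least 5. The median log2 fold change of the 14 inhibitors was -0.13. The 4 with the largest change were Stfa3, Stfa2l1 and Csta1, genes of stefin-type cysteine protease inhibitors, with -1.18, -1.09 and -1.02, and Slpi, the secretory leukocyte protease inhibitor gene, with -0.94. Wfdc2 was the gene that rose, by 0.35 ± 0.07 (limma adjusted p = 0.00909), and was chosen after its values were seen. The stefin genes are near-identical copies, so their single values are uncertain.

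Substrates and partners of the kallikreins were counted in the same fit. Of 11 measured genes of desquamation and kallikrein action, 4 fell, none rose and 7 missed the threshold, and the median log2 fold change was -0.20. The share called was 36.4%, all as lower. Of all genes, 8.90% were called and 4.43% were lower. Of those with a mean log2 signal of at least 5, 16.0% were called and 7.52% were lower. In limma 1 of the 11 was higher and 6 were lower at an unadjusted p under 0.05. By that measure 920 of all 9294 genes were higher and 1012 were lower. Tgm1, the transglutaminase that crosslinks the cornified envelope, fell by 0.73 ± 0.07 (SE), Dsg1b and Dsg1a, genes of desmoglein-1, by 0.58 ± 0.15 and 0.47 ± 0.12, and Scnn1b, a subunit of the epithelial sodium channel, by 0.37 ± 0.07. Leaving out WT2, WT3 or KO4 left 2 of these falls, and leaving out KO1 added 1 rise. The corneodesmosin gene Cdsn, a Klk7 substrate chosen here with its values known, had a log2 fold change of -0.32 ± 0.10 (limma adjusted p = 0.0822). Of 28 other proteases of skin and matrix, 4 fell, none rose and 24 missed the threshold, with a median of -0.08. The share called was 14.3%, all as lower. At an unadjusted p under 0.05 in limma, 5 of the 28 were higher and 11 lower. The 4 called falls included the matrix metalloprotease genes Mmp3, Mmp13 and Mmp10, by 1.40 ± 0.05, 0.80 ± 0.07 and 0.56 ± 0.06. The carboxypeptidase gene Cpa4 fell by 0.47 ± 0.11 (limma adjusted p = 0.0175).

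Cathepsins changed in 2 of 13 genes (15.4%, where 8.90% of all genes were called), in opposite directions. Ctsk, the collagen-degrading cathepsin K of osteoclasts and fibroblasts, had log2 signals of 6.70, 6.58, 6.73 and 6.71 in wild-type arrays and 5.84, 5.62, 5.76 and 5.89 in knockout arrays. The gap between the groups was wide beside the spread within each. Ctsk fell by 0.90 ± 0.07 (SE; limma adjusted p = 8.25e-06), a 1.87-fold difference and the largest among the 102 genes. Fibroblast markers were lower in the same arrays: of 9 measured of 20 listed, 8 fell and Postn rose, with a median of -0.50. The share lower was 88.9%, where 4.43% of all genes were lower. The summed signal of these markers lay at a log2 of 10.29 to 10.41 in wild-type and 9.78 to 9.98 in knockout arrays, and none had a mean under the lower quartile. In RNA of whole cultures, fewer cells of a type and less RNA per cell cannot be told apart, and the part of fibroblast transcripts in the fall of Ctsk was not tested.

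Ctsw, known as a cathepsin of natural killer and cytotoxic T cells, had 6.31, 5.85, 6.04 and 6.10 in wild type and 6.76, 6.39, 6.69 and 6.35 in the knockout. It rose by 0.47 ± 0.11 (SE; limma adjusted p = 0.0242), with the lowest knockout value just above the highest wild-type value. Ctsw missed the threshold when WT2, WT3 or WT4 was left out (limma adjusted p = 0.0660, 0.0619 and 0.0590) and when KO1 or KO3 was (limma adjusted p = 0.0661 and 0.0763). Of 12 measured leukocyte markers of 23 listed, none rose and Tyrobp fell, by 0.25 ± 0.07 (limma adjusted p = 0.0367). The share called was 8.33%, where 8.90% of all genes were called. No leukocyte marker was lower when WT1, WT2, KO1, KO2, KO3 or KO4 was left out, after repeated quantile normalization or with arrays centred on their medians. Their summed signal lay at a log2 of 8.50 to 8.64 in wild-type and 8.41 to 8.48 in knockout arrays, the myeloid integrin gene Itgam lay under the lower quartile, and Cd3e, of the T cell receptor complex, was at 5.39 in both groups. None of the 12 had an unadjusted limma p under 0.05 as higher, and 4 had one as lower. By that measure 920 of all 9294 genes were higher and 1012 were lower. The part of leukocyte transcripts in the rise of Ctsw was not tested.

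Of 6 cathepsins with a mean log2 signal of at least 5, the other 4 (Ctsd, Ctss, Ctse and Ctsq) did not pass. Ctsd, the aspartic protease cathepsin D, had log2 signals of 12.70 to 12.73 in wild type and 12.56 to 12.66 in the knockout and a log2 fold change of -0.09 ± 0.05 (SE; limma adjusted p = 0.301) although the groups did not overlap. Ctss, the cathepsin of antigen-presenting cells, had a log2 fold change of -0.16 ± 0.10 and Ctse, an aspartic protease of epithelia and immune cells, one of 0.30 ± 0.13 (limma adjusted p = 0.387 and 0.198). A second probe set of Ctse had means of 4.79 and 4.78 and a log2 fold change of -0.01, so the 2 probe sets of this gene disagree. Ctsq, of the placental cathepsins, had 0.17 ± 0.06 (limma adjusted p = 0.142), and its 5 relatives Cts3, Cts6, Ctsj, Ctsm and Ctsr lay under the lower quartile in both groups. Of 18 measured lysosome genes, none passed in limma in either direction, with a median of -0.01. At an unadjusted p under 0.05, 2 of the 18 were higher and 1 was lower. By that measure 920 of all 9294 genes were higher and 1012 were lower. The number of lysosome genes called as higher was 1 when WT3 or KO4 was left out and with arrays centred on their medians. It was also 1 with either filter on low signals and with a trended robust variance, and the last also gave 1 lower. The log2 fold changes of the 18 ran from -0.24 to 0.23.

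No ADAM gene passed the test in limma. The 3 with a mean log2 signal of at least 5 were Adam8, Adam9 and Adam4. Adam8, a leukocyte and tumour-associated sheddase, had means of 10.19 in wild type and 10.25 in the knockout. Adam9, a widely expressed sheddase, had 9.55 and 9.66. Adam4, a testis gene, had 5.29 and 5.28, a level that without detection calls does not show expression. Adam9 had 9.51 to 9.61 in wild type and 9.65 to 9.67 in the knockout, so its groups did not overlap, but the log2 fold change of 0.11 ± 0.05 (SE) had a limma adjusted p of 0.214. It was the 1 of 16 Adam genes with an unadjusted p under 0.05. By that measure 920 of all 9294 genes were higher and 1012 were lower. Adam8 had 0.06 ± 0.06 (limma adjusted p = 0.612), and Adam4 had -0.01, which was 0.0055 after repeated quantile normalization and 0.018 with arrays centred on their medians. The other 13 had means under 5, from Adam21 at 4.92 down to Adam25 at 1.91, and 12 of them, Adam2 and Adam32 included, lay under the lower quartile in both groups. Among 14 measured partners and substrates of the sheddases ADAM17 and ADAM10, 3 rose, 3 fell and 8 missed the threshold, with a median of -0.03. The share called was 42.9%, where 8.90% of all genes were called and 16.0% of those with a mean log2 signal of at least 5. Icam1, an adhesion molecule gene, rose by 0.56, and Frmd8, which encodes a partner of the iRhom proteins that carry ADAM17 to the surface, by 0.28. Tnf, the cytokine gene whose product ADAM17 releases, rose by 0.27, and Epgn, the gene of the EGF receptor ligand epigen, fell by 0.37. The falls numbered 1 in place of 3 when WT2 or WT3, or KO1, KO2 or KO4, was left out, and also with arrays centred on their medians. The rises numbered 5 with genes under a mean of 5 left out and 6 with a trended robust variance.

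Of 8 ADAMTS and ADAMTS-like genes, 1 rose and 1 fell, both with mean log2 signals under 5. The share called was 25%, where 8.90% of all genes were called. Adamts20, a versican-cutting protease needed for the belted coat pattern of mice, had log2 signals of 2.71, 2.75, 2.93 and 2.84 in wild-type arrays and 3.30, 3.22, 3.59 and 3.55 in knockout arrays. Its groups were far apart, and it rose by 0.61 ± 0.09 (SE; limma adjusted p = 0.00109), but all 4 wild-type values and those of KO1 and KO2 lay under the lower quartiles of their arrays, where signals could not be separated from background. Adamts7, which cuts cartilage oligomeric matrix protein, had 4.85, 4.94, 4.90 and 4.86 in wild type and 4.71, 4.61, 4.73 and 4.69 in the knockout. It fell by 0.20 ± 0.05 (limma adjusted p = 0.0322), and passed without WT4 but not when any of the others was left out (limma adjusted p of 0.0501 to 0.0994). With arrays centred on their medians it did not pass either (limma adjusted p = 0.0630). Adamtsl4, an ADAMTS-like gene of microfibrils, had a log2 fold change of 0.22 ± 0.09 (limma adjusted p = 0.179), and that of Adamtsl2 was -0.03 ± 0.09 (limma adjusted p = 0.923). Adamts8, Adamts12, Adamts15 and Adamtsl3 had means under 5 and log2 fold changes from -0.04 to 0.10. Of 6 measured ADAMTS substrates and matrix partners, Dcn and Lum, proteoglycan genes that are also fibroblast markers, fell by 0.97 and 0.48. The other 4 missed the threshold, and the share called was 33.3%, where 8.90% of all genes were called. Adamts20 is known to act in melanocyte precursors. Melanocyte markers were lower in 2 of 4 measured genes (50%, where 4.43% of all genes were lower) and higher in none. Their median was -0.24, and their summed log2 signal was 11.47 to 11.54 in wild-type and 11.11 to 11.41 in knockout arrays. The lower melanocyte markers numbered 1 when WT2, KO3 or KO4 was left out. Their part in the result for Adamts20 was not tested. In mast cell and endothelial lists of 6 and 9 measured genes none was called in limma. At an unadjusted p under 0.05, none was higher and 1 was lower in each. By that measure 920 of all 9294 genes were higher and 1012 were lower.

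No caspase gene passed the test on the deposited values. Of the 5 Casp genes, which include Casp8ap2, 3 had an unadjusted limma p under 0.05 as higher and 1 as lower. By that measure 920 of all 9294 genes were higher and 1012 were lower. Casp8 and Casp2 passed as higher with genes under a mean of 5 left out (limma adjusted p = 0.0344 and 0.0408) and with a trended robust variance (limma adjusted p = 0.0165 and 0.0393). Casp8, the initiator caspase of death receptors, had log2 signals of 9.78, 9.76, 9.77 and 9.74 in wild-type arrays and 9.93, 9.87, 9.89 and 9.86 in knockout arrays. The groups did not overlap, but they lay close, with a log2 fold change of 0.12 ± 0.05 (SE; limma adjusted p = 0.149). Casp2, an initiator caspase of stress responses, had 0.15 ± 0.05 and Casp8ap2 had 0.07 ± 0.05 (limma adjusted p = 0.132 and 0.503). The inflammatory caspases Casp1, which processes interleukin-1 beta, and Casp4, which senses cytosolic endotoxin, are neighbours on chromosome 9 and had opposite signs. Casp1 had 3.71, 3.85, 3.95 and 3.58 in wild type and 4.12, 3.93, 3.98 and 4.07 in the knockout, all under the array medians, and a log2 fold change of 0.25 ± 0.08 (limma adjusted p = 0.0864). Casp1 passed without WT3 (limma adjusted p = 0.0371), after repeated quantile normalization (0.0387) and with arrays centred on their medians (0.0480). Casp4 had -0.19 ± 0.07 (limma adjusted p = 0.133). The difference between the 2 was not tested.

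Partners of the caspases were counted in the same fit, where 8.90% of all genes were called, and 16.0% of those with a mean log2 signal of at least 5. The 9 apoptosis and death receptor genes lay at that level, except for Tnfrsf25 with a mean of 4.29. Of 9 measured apoptosis and death receptor genes 2 were called (22.2%): Mlkl, the executor of necroptosis, rose by 0.25 ± 0.06 and Tnfrsf1a, the TNF receptor gene, fell by 0.23 ± 0.06 (SE; limma adjusted p = 0.0219 and 0.0314), and 7 missed the threshold. Mlkl did not pass when WT1, WT2 or WT3, or KO1, KO2 or KO4, was left out, and Tnfrsf1a did not when WT2, WT3 or WT4, or KO1, KO2 or KO4, was. Of 13 measured inflammasome and pyroptosis genes 1 was called (7.69%): Il1a, an epidermal alarmin gene, fell by 0.90 ± 0.06 (limma adjusted p = 2.12e-06) and 12 missed the threshold, with a median of -0.05.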

How the data were processed

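The values are log2 expression signals per probe set, deposited by the authors in 1 table of 8 arrays. How they were background-corrected, normalized and summarised is not given in the sources used here; total RNA was labelled with biotin, per the labels. The table held 11373 probe sets, of which 9374 carried 1 gene symbol of the platform annotation, 479 several and 1520 none. Of several probe sets of a gene the one brightest on average was kept. This left 9294 genes, and the 102 members came from 103 probe sets. Knockout and wild type were compared on the deposited log2 values with limma 3.58.1 in R 4.3.3 (lmFit and eBayes, no covariate), with Benjamini-Hochberg adjustment over all genes and a threshold of 0.05. No gene was filtered out. Precision rests on 4 arrays a group (median standard error 0.069), and detection calls and scan batches were not used here. Within-array ratios had two-sided exact permutation tests. The fit was repeated after quantile normalization, after centring each array, without dim genes, with other rules for probe sets, with a trended robust variance, with a replicate block and without each array in turn. The genes named are all called members, all kallikrein, caspase, Timp and Spink members, the 6 brightest of each other family, and up to 4 called genes with the largest change in each partner list. The members and lists were chosen with earlier results of these data known, and the script for the fit was tested on simulated data. Promoter sequences are from RefSeq (GRCm38.p6).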

Additional observations from a re-analysis of the deposited data

Results flagged for a closer look

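In the test for a single array far from the others of its group, 90 groups of 4 arrays were checked, and chance alone marks about 1 in 20. For Ctss, wild-type RAS replicate 2 had a log2 signal of 5.51 where the other wild-type arrays had 5.17 to 5.21, and the gene was not called (log2 fold change -0.16). For Klk8, wild-type RAS replicate 1 had 11.52 where the others had 11.58 to 11.59, and the gene was not called either (log2 fold change -0.11).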

How the results depend on the processing

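Of the 17 called members, 9 were called in every alternative that tested them (Adamts20, Ctsk, Klk7, Klk11, Prss22, Spink5, Tmprss4, Tmprss11d and Tmprss11e), and none of the 17 changed sign. A trended robust fit gave 7 members that rose and 16 that fell, and 1134 genes in all. Leaving out 1 array at a time gave 2 to 3 members that rose, 8 to 12 that fell, and 598 to 687 genes called in all. Over all probe sets, the replicate numbers of the groups did not pair the arrays. Deviations of same-numbered arrays correlated at 0.08, -0.01, 0.03 and -0.04, and 2 of 8 arrays correlated best with their own number. Among the 25 serine protease and Spink members with a mean of at least 5, however, WT1 was lowest in 18 and KO1 in 17. Pairing within these members was not tested. With the replicate block, 3 members rose and 12 fell, with 659 genes called in all, Adamts7, Prss12 and Tmprss11g were not called (limma adjusted p = 0.0920, 0.0563 and 0.0719) and Klk5 was (limma adjusted p = 0.00805), as was 1 lysosome gene as higher. Repeated quantile normalization also called Klk5 and Casp1 (limma adjusted p = 0.0391 and 0.0387) and not Tmprss11g (0.0605). Single values were followed through the alternatives for the called members and those with a mean log2 signal of at least 5. The caspases, Timp1, Spink1, the Tmprss11 genes and the kallikreins outside Klk1b were followed as well. Among the uncalled genes followed, 10 passed in at least 1 alternative. The sign turned in 6 of the uncalled genes followed, 5 with reported values within 0.08 of 0 and Ctse with 0.30. Signs of the remaining members, many with fold changes near 0, were not followed. Adam4 was at 0.0055 with repeated quantile normalization, 0.018 with centred arrays and -0.052 to 0.044 with 1 array left out. Adamtsl2 was at 0.0012 with centred arrays and -0.11 to 0.040 with 1 array left out, and Timp1 at 0.0016 and -0.088 to 0.025. With 1 array left out, Prss36 ran from -0.085 to 0.023 and Tmprss6 from -0.13 to 0.017. Ctse was at -0.013 without probe sets that can bind several transcripts. All ratios kept their side of the threshold with repeated quantile normalization, an alternative added after the data were seen. Genes with signals near the lower quartile have no measured background here, which limits their fold changes.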

Other observations

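Probe sets that carry several symbols were outside the 102 genes. The one shared by Klk1b9 and Klk1b22 had mean log2 signals of 5.65 in wild-type and 5.55 in knockout arrays (limma adjusted p = 0.755 in a fit of all probe sets). Those shared by Klk1b26 and Egfbp2, by Prss1, Prss3 and related genes, and by Adam6a and Adam6b had means of 2.34 and 2.32, 3.11 and 3.04, and 3.33 and 3.36, and their limma adjusted p-values were 0.928, 0.793 and 0.913.

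Among the 10 kallikreins with a mean log2 signal of at least 5, WT1 was lowest of its genotype in 8, WT3 was highest in 8, and KO1 was lowest in 9 and highest in none. These counts were made after the values were seen and were not tested.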
